A study of Mus musculus with 50 samples.

Results

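The Polycomb repressor genes described here are 10 rows of a table of 11879 gene rows, taken by name: Ezh1, Ezh2, Eed, Suz12, Jarid2, Cbx7, Rnf2, Ring1, Bmi1 and Phc1. All 10 had a row, and the rule for taking them uses names and no measured value. The table gives TPM (an abundance of transcripts scaled for transcript length and set to a common total) for each gene in each of 50 single mouse cells. The cells were iRunx1-iHECs, hemogenic endothelial cells made in culture from C57BL/6 embryonic stem cells with a doxycycline-inducible Runx1 cassette in the Rosa26 locus. The sort gate was CD31+CD41lowCD45-c-kit+CD201high. Every cell carried the cassette, came from drug-selected stem cells and had received doxycycline, and there was no second group, so nothing below compares conditions. The labels name no culture or animal, so the 50 cells are 1 sample without replicates, and no p-value is given.

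Polycomb proteins keep developmental genes silent through 2 kinds of complex. PRC2 methylates histone H3 at lysine 27 through Ezh1 or Ezh2, which are alternative catalytic subunits and need the core subunits Eed and Suz12. PRC1 ubiquitinates histone H2A through Rnf2 or Ring1. The canonical form of PRC1 holds a Cbx protein that reads the PRC2 mark, Bmi1 or Pcgf2, and a Phc protein, and variant forms hold Rybp or Yaf2 with other Pcgf proteins. The Hox genes are the best known genes kept silent by these complexes, and Ezh1 and Ezh2 have both been studied in the emergence of blood stem cells.

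The labelled cell type was checked first. All 6 endothelial markers in the list used here were above TPM 1 in 49 or 50 cells. Among them Pecam1 (CD31) and Procr (CD201) encode gates of the sort, so they are no independent check. Of 6 hemogenic genes, Kit (also a gate) was in 47 cells, Runx1 (the cassette gene) in 43 and Gata2 in 41. Itga2b (CD41, also a gate) was in 40, Lmo2 in 33 and Tal1 in 29. Of 4 blood cell genes, Ptprc (which encodes CD45, a gate of the sort) and Spn were listed at 0 in all 50. For a count of 0, 3 counts of 50 give a limit of 6% and the exact interval reaches 7.11%, both for cells above TPM 1 and not for cells that express the gene. Of the other blood cell genes, Cd52 was above TPM 1 in 3 cells and Coro1a in 21, of which 13 were among the 14 cells with a 2 as the first number in their title. The 4 mesenchymal or feeder markers with a row were above TPM 1 in at most 2 cells. None of the 7 pluripotency markers looked for could be matched to a row, so their level is not described. A median of 6224 genes was above TPM 1 in a cell, with a range of 2400 (cell 4-6, named by the 2 numbers in its title) to 8615, and 7 cells had fewer than 5000. How deeply each cell was sequenced cannot be read from TPM and is unknown. The reference genes Hprt and Tbp were above TPM 1 in 46 and 34 cells, so a value of 0 is described only as listed at 0. Intervals below are exact Clopper-Pearson 95% intervals for a share of the 50 cells and cover counting error only.

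Ezh1 (chr11:101191115-101226463, minus strand, GRCm38) and Ezh2 (chr6:47530139-47595341, minus strand) lie on different chromosomes. The stretches just before their start sites are shown because the 2 genes differ there in a motif, the CCAAT box. They were chosen after the data were seen, and whether the motif bears on expression was not tested. They are 125 bases that end 29 bases before the RefSeq start (GRCm38.p6), at chr6:47595059-47595183 for Ezh2 and chr11:101226492-101226616 for Ezh1, both read 5′ to 3′ on the minus strand and outside every annotated GENCODE exon. The Ezh2 stretch lies within the GENCODE span of the gene given above, downstream of its outermost start, and the Ezh1 stretch lies before the GENCODE span. Capitals mark the CCAAT box, searched as CCAAT and as its reverse complement ATTGG.
Ezh2: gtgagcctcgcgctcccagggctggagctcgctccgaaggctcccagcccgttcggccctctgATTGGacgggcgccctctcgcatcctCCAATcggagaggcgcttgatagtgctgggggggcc
Ezh1: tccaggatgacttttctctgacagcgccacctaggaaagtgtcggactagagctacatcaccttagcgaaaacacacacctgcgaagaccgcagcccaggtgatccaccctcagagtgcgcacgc
The stretch of Ezh2 holds 2 CCAAT boxes, and the third lies nearer the start, which makes 3 in its 250 bases before the start. No such letters occur in the 250 bases before Ezh1. Of 32851 windows of that length before RefSeq starts, 33.8% held at least 1 CCAAT box and 2.79% held 3 or more. A match of letters is a description of the window and not a bound site. The 10 genes had 11 such windows, since Jarid2 has 2 starts, and all had more CpG dinucleotides than the median window (6), from 8 before Phc1 to 37 before Suz12, with 14 before Ezh1 and 23 before Ezh2. The E2F motif TTCCCGC was found before Suz12 alone among the 10 (3.82% of all windows), and TTGGCGC before none (1.97%). The GC box GGGCGG, found in 32.7% of all windows, occurred 6 times before Bmi1, 3 before Suz12 and 2 before each of Rnf2 and Ring1, and not before Ezh1 or Ezh2. All motifs were searched on both strands.

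The 10 genes covered nearly the whole range from rare to present in almost every cell. At TPM above 1, Rnf2 was found in 49 cells, Eed in 38, Jarid2 in 36, Suz12 in 33, Ezh1 in 32 and Ezh2 in 29. Phc1 was found in 18, Ring1 in 12, Bmi1 in 10 and Cbx7 in 3. The first 6 were thus in at least 25 of the 50 cells, and 53.2% of all rows in the table reached that number, so 6 of 10 is near the background. The median share of cells over the 10 genes was 61%, against 52% over all rows. A cell had a median of 5 of the 10 genes above TPM 1. Cell 4-14 had the fewest, 1, and 1 cell had 9. The number rose with the number of genes found in a cell (Spearman's rho 0.68 over 50 cells, a description that carries no p-value). The relation was not strict, since cell 4-6, with the fewest genes, had 4 of the 10.

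**Figure D1:**
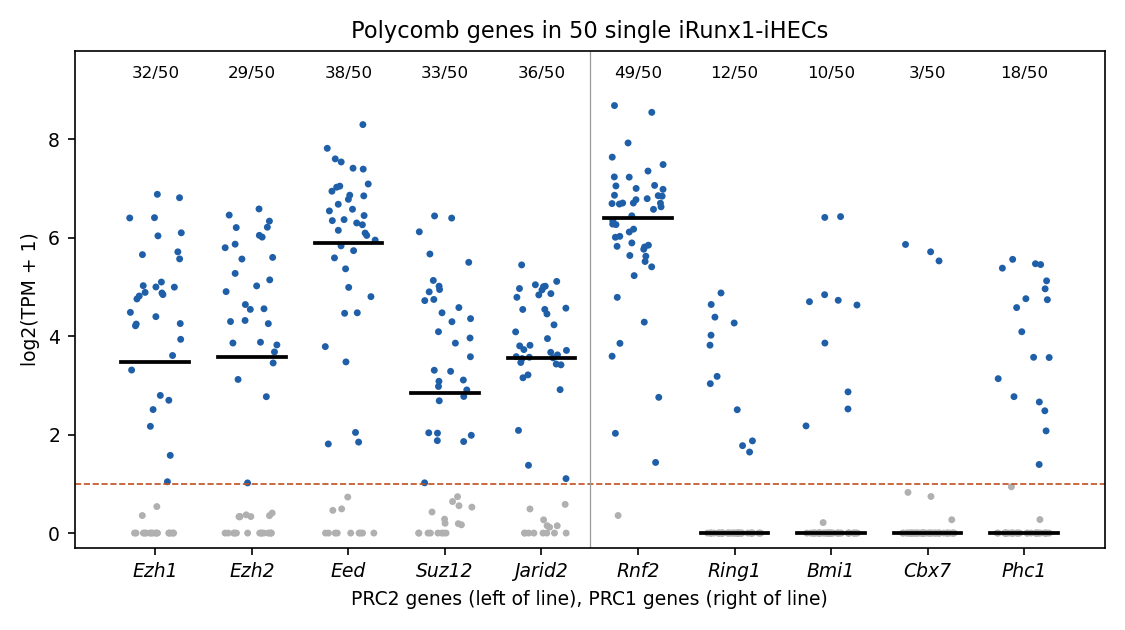
TPM of the 10 Polycomb repressor genes in each of the 50 cells, 1 point a cell, on a log2(TPM + 1) axis. Rnf2 was above TPM 1 in 49 cells and Cbx7 in 3, and Ezh1 (32 cells) and Ezh2 (29 cells) covered much the same range.

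Ezh1, the catalytic subunit that also works in cells that do not divide, passed TPM 1 in 64% of cells (interval 49.2% to 77.1%). It was listed at 0 in 16 cells, the median was TPM 10.1 and the highest value was TPM 117 in cell 2-1. Ezh2, the catalytic subunit known for its high level in dividing cells, was above TPM 1 in 58% (43.2% to 71.8%). It was listed at 0 in 14 cells and lay between 0 and 1 in 7, the median was TPM 10.9 and the highest value was TPM 95.1 in cell 4-6. In the cells where each was above TPM 1, the median was TPM 27.5 for Ezh1 and 28.98 for Ezh2. The intervals of the 2 shares overlap, and the medians over 50 cells lie close together on this length-scaled measure. They were farther apart in some of the groups set by the first number of the cell titles, 1 to 4, whose meaning the labels do not give. For title numbers 1, 2, 3 and 4 in turn the median was TPM 28.6, 11.5, 14.3 and 7.44 for Ezh1 and TPM 0.326, 5.12, 11.8 and 18.8 for Ezh2.

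Within single cells the 2 genes were seldom equal. Both were above TPM 1 in 22 cells, Ezh1 alone in 10, Ezh2 alone in 7 and neither in 11. When values of TPM 1 or less were taken as none, Ezh2 was the higher in 21 cells (42%, interval 28.2% to 56.8%) and Ezh1 in 18 (36%, 22.9% to 50.8%). With every value above 0 used, Ezh2 was the higher in 25, Ezh1 in 20, and both were listed at 0 in 5. The median of log2(Ezh2/Ezh1), with 1 added to each TPM, was 0.02, but single cells ran from −6.81 to 6.59. Among the 22 cells with both, Ezh2 was the higher in 14 and Ezh1 in 8, with a median log2 ratio of 0.73. Only 6 of these 22 lay within 2-fold, while Ezh2 was more than 2-fold higher in 10 and Ezh1 in 6.

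The 5 cells with the most Ezh1 held very different amounts of Ezh2. Cell 2-1 had TPM 117 of Ezh1 and 54.6 of Ezh2, cell 1-14 had 112 and 0, and cell 2-7 had 84.0 and 9.98. Cells 1-8 and 2-8 had 83.6 and 67.6 of Ezh1, with 22.3 and 0 of Ezh2. High Ezh1 thus occurred both with Ezh2 above TPM 1 and with Ezh2 listed at 0.

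The same held from the other side. The cells with the most Ezh2 were cell 4-6 with TPM 95.1 and Ezh1 at 0, cell 1-3 with 87.1 and 0, and cell 3-8 with 79.9 and 21.4. Cells 1-10 and 3-4 had 73.3 and 72.9 of Ezh2, with 46.5 and 1.99 of Ezh1. Cell 4-6 is also the cell with the fewest genes, so a single high value there stands beside many rows at 0. Across the 50 cells the rank correlation of Ezh1 with Ezh2 was 0.10, and it was −0.14 once the number of genes per cell, with which both rose (rho 0.43 and 0.49), was held fixed (a partial rho). Within the first title numbers rho ran from −0.14 to 0.33.

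**Figure D2:**
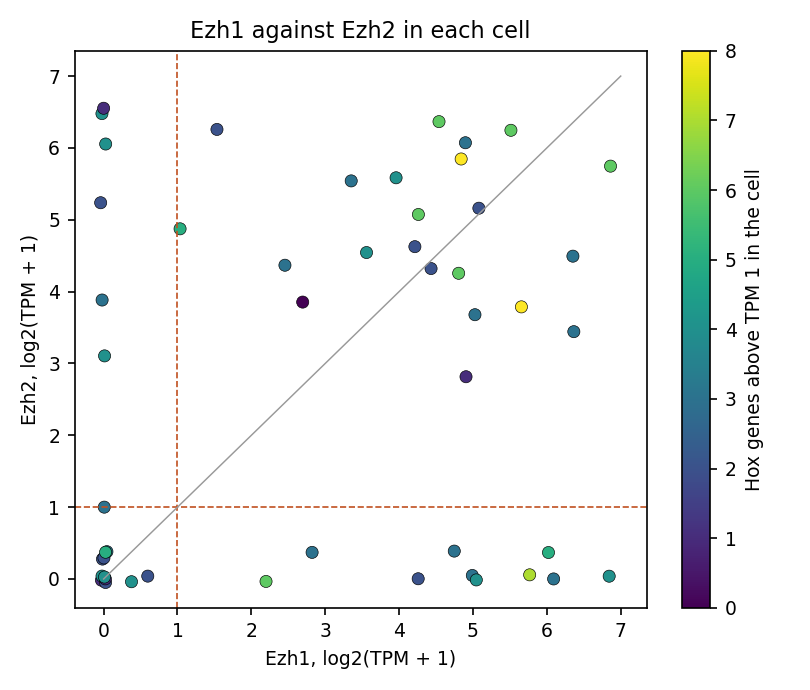
Ezh1 (x axis) against Ezh2 (y axis) in each of the 50 cells, as log2(TPM + 1), with points offset slightly at random so that cells at the same place can be seen. Points along an axis and away from the origin are cells with 1 gene alone above TPM 1, and 22 cells lie above TPM 1 for both.

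Eed (chr7:89954654-89980983, minus strand, GRCm38), the PRC2 subunit that binds the methyl mark, had the highest median of the PRC2 members, TPM 58.5, with 9 cells at 0 and a highest value of TPM 314, again in cell 4-6. Suz12 (chr11:79993106-80034123, plus strand), the scaffold of PRC2, had a median of TPM 6.18 over all 50 cells and of 14.6 over those above TPM 1. Its highest value was TPM 86.1 in cell 2-15, and it lay between 0 and 1 in 9 cells. With values of TPM 1 or less taken as none, here and for every pair below, Eed was above Suz12 in 33 cells and Suz12 above Eed in 11. At TPM above 10, Suz12 was found in 38% of cells in place of 66%. Jarid2 (chr13:44729474-44921643, plus strand), an accessory subunit that helps bring PRC2 to its targets, had a narrow upper range, with a median of TPM 10.9 and a highest value of TPM 42.7 in cell 3-12. The first title number split Suz12 unevenly, since 12 of 14 cells with a 2 but 5 of 13 with a 3 were above TPM 1.

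Many cells lacked at least 1 core subunit above TPM 1. At least 1 of Ezh1 and Ezh2 was above TPM 1 in 39 cells (78%, interval 64.0% to 88.5%). Eed and Suz12 were found together in 27 cells. Ezh2, Eed and Suz12 were all found in 17 cells (34%, 21.2% to 48.8%), a share of 54% with any value over 0 taken as found and 16% with a limit of TPM 10, and Ezh1, Eed and Suz12 in 20 (40%). With either catalytic subunit the number was 23 (46%, 31.8% to 60.7%), and 4 cells had Eed and Suz12 with no Ezh gene above TPM 1. These are counts of transcripts found together and say nothing about assembled complexes.

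Of the PRC2 subunits outside the 10 genes, 4 of 7 were in at least 25 cells, near the 53.2% of all rows. The histone-binding subunits Rbbp7 and Rbbp4 were in 50 and 49 cells, at median TPM 304 and 52.5. Among the accessory subunits that set where PRC2 binds, Mtf2 was in 45 cells at a median of TPM 49.2, Aebp2 in 28, Phf1 in 23 and Phf19 in 6. Epop, listed under its older name E130012A19Rik, was in 22. Mtf2 was thus found in more cells than its relatives Phf1 and Phf19. The enzymes that remove the PRC2 mark were both found: Kdm6b in 50 cells at a median of TPM 22.1, and Kdm6a in 26 at TPM 1.137.

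Rnf2 (chr1:151458004-151500955, minus strand, GRCm38), the main ubiquitin ligase of PRC1, was the most widespread of the 10 genes. Its median was TPM 83.3 and its highest value TPM 411 in cell 4-13. It was above TPM 100 in 22 cells, and no cell was listed at 0 (lowest value TPM 0.28). Its paralog Ring1 (chr17:34020792-34024680, minus strand) was above TPM 1 in 12 cells (24%, interval 13.1% to 38.2%), was listed at 0 in the other 38 and reached TPM 28.4 in cell 2-12. At TPM above 10 it was found in 12% of cells. Rnf2 was above Ring1 in 48 cells and Ring1 above Rnf2 in 1, so here, unlike for Ezh1 and Ezh2, 1 paralog led in nearly every cell. Across cells Ring1, at 0 in most of them, had a rho of −0.35 with Rnf2, negative within each of the 4 first title numbers. The partial rho over all cells was −0.32. Of all pairings of a member with a row in at least 20% of cells, 2.04% had a partial rho of −0.3 or below.

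The members that define canonical PRC1 were rare. Bmi1 (chr2:18677018-18686629, plus strand), a Pcgf protein known for its role in stem cell self-renewal, was above TPM 1 in 10 cells (20%, interval 10.0% to 33.7%) and reached TPM 85.2 in cell 2-6. Cbx7 (chr15:79915807-79971119, minus strand), a reader of the PRC2 mark, was found in 3 cells (6%), at TPM 45.2, 51.5 and 57.2, and was listed at 0 in 44. Phc1 (chr6:122317731-122340561, minus strand), which lets PRC1 complexes polymerise, was found in 18 cells (36%, interval 22.9% to 50.8%) and reached TPM 46.2 in cell 2-11. Where found, these genes were not low, since the median over positive cells was TPM 24.4 for Bmi1 and 19.5 for Phc1.

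Other genes of the same families filled some of these places and not others. Of the Cbx genes, Cbx6 was found in 23 cells, Cbx2 in 7 and Cbx8 in 3. Pcgf2, the other Pcgf protein of canonical PRC1, was found in 15 cells, and Bmi1 or Pcgf2 in 22 (44%, interval 29.99% to 58.8%). Phc2 was in 36 cells at a median of TPM 25.1 and was above Phc1 in 33, while Phc1 was above Phc2 in 7.

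The genes of variant PRC1 were also found in very different numbers of cells. Yaf2 was in all 50 cells at a median of TPM 142 and Rybp in 42 at TPM 8.37. Of the Pcgf proteins of variant complexes, Pcgf5 was in 33 cells at a median of TPM 26.6, Pcgf3 in 27, Pcgf6 in 26 and Pcgf1 in 21, and at least 1 of them was in 48 cells (96%). Pcgf5 was above Bmi1 in 33 cells and Bmi1 above Pcgf5 in 3. Kdm2b, which brings a variant complex to CpG islands, was in 34 cells, and Bcor, L3mbtl2 and Bcorl1 were in 23, 20 and 14.

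Put together, a variant set (Rnf2 or Ring1, Rybp or Yaf2, and any of Pcgf1, Pcgf3, Pcgf5 and Pcgf6) was found in 47 cells (94%, 83.5% to 98.8%). That number follows almost wholly from its parts, since Rnf2 was in 49 cells, Yaf2 in 50 and any of these Pcgf genes in 48. No full set was counted for canonical PRC1, so the canonical and variant forms are not compared. Of all 23 further PRC1 genes in the list, 11 were in at least 25 cells, with a median share of 46%, against 53.2% of all rows and a median share of 52%.

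**Figure D3:**
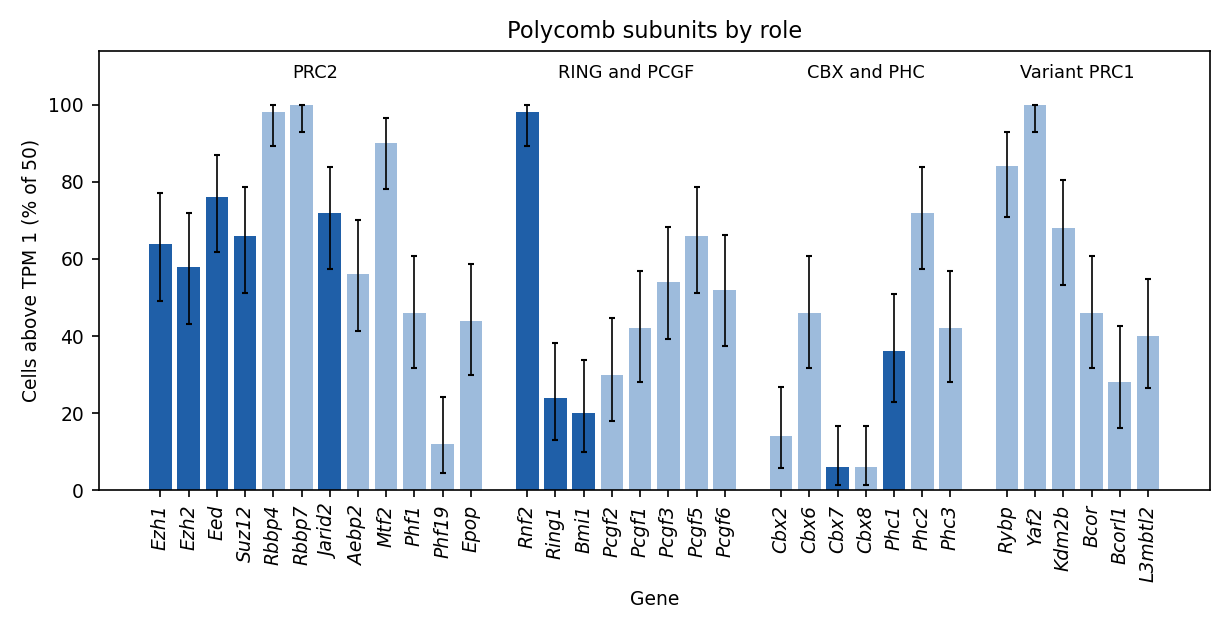
Share of the 50 cells above TPM 1 for PRC2 and PRC1 genes, grouped by role, with exact 95% intervals as error bars and the 10 members as dark bars. Rnf2, Rbbp7 and Yaf2 stood in 49 or 50 cells, while Cbx7 and Cbx8 stood in 3 each.

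Genes that remove the PRC1 mark and Trithorax genes were also counted. Of the genes that remove ubiquitin from H2A or belong to that complex, Bap1 was in 41 cells at a median of TPM 38.8, Asxl2 in 37, Asxl1 in 31 and Asxl3 in 2. Thus 3 of these 4 were in at least 25 cells, against 53.2% of all rows. Of 9 Trithorax genes with a row, which keep genes active through H3 lysine 4 methylation, 5 were in at least 25 cells, near the 53.2% of all rows, and the median share was 68%. Dpy30 was in 50, Ash2l in 45 and Men1 in 41, while the methyltransferase genes Kmt2a, Kmt2b and Kmt2c, listed under older names, were in 23, 19 and 23.

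The relation to the Hox genes was described by the number of Hox genes above TPM 1 in a cell, out of 18 rows. It ran from 0 to 8 with a median of 3, and it too rose with the number of genes found (rho 0.38). Hoxb5 was in 40 cells, Hoxb2 in 32, Hoxb4 and Hoxb7 in 19 each, Hoxa13 in 18 and Hoxb6 in 15. Of 11 other genes listed as silenced by Polycomb in many tissues, only 2 could be matched to a row, Gata6 in 27 cells and Gata4 in 16. The other 9 could not be matched, and the rule by which rows were kept is unknown. These 2 thus do not stand for the list.

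None of the 10 genes ran clearly against the number of Hox genes. Across the members, rho lay between −0.08 (Bmi1) and 0.32 (Ezh1), with a median of 0.12. With genes per cell held fixed, the partial rho lay between −0.20 and 0.19. A partial rho of 0.3 or more with the Hox number was reached by 2.5% of the rows in at least 20% of cells, and by none of the 9 members among those rows. The middle 90% of those rows lay between −0.22 and 0.26, which holds all the members' values.

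Over all 50 cells Ezh1 had the highest rho of the 10 genes with the number of Hox genes, and Ezh2 a lower one. For Ezh1 the rho with the number of Hox genes was 0.32 and the partial rho 0.19. Within the first title numbers its rho ran from −0.06 to 0.48 and was positive in 2 of 4. For Ezh2 the rho was 0.13 and the partial rho −0.06, and within the title numbers it ran from −0.66 to 0.54 and was positive in 3 of 4. Without the 14 cells of first title number 2 the rho of Ezh2 was −0.05. The signs of both thus varied with which cells were taken. The rho of Ezh1 was 0.21 to 0.42 with each first title number left out, and its rank changed. Without number 1, Phc1 (0.220) and Ring1 (0.217) were above Ezh1 (0.210). Without number 2, Phc1 (0.41) and Cbx7 (0.28) were above Ezh1 (0.24). The 9 cells with 6 or more Hox genes, a number chosen after the values were seen, all had Ezh1 above TPM 1, and 7 of them had Ezh2. They had 6005 to 8615 genes above TPM 1. Counted over the 6 Hoxb rows alone, rho was 0.29 for Ezh1, 0.17 for Ezh2 and 0.30 for Phc1. The partial rho was 0.17, −0.01 and 0.17 in turn.

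**Figure D4:**
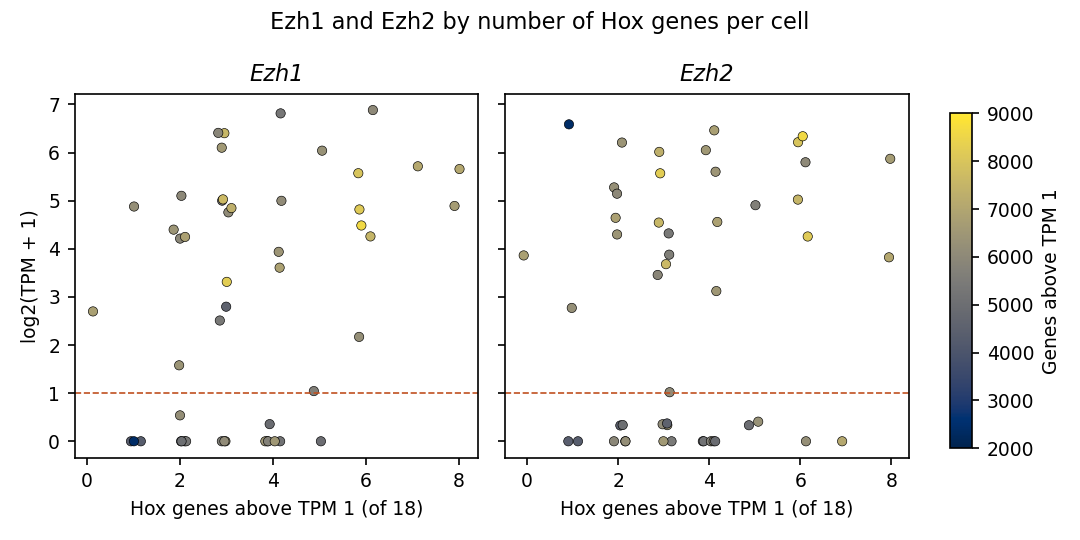
Ezh1 (left) and Ezh2 (right), as log2(TPM + 1), against the number of Hox genes above TPM 1 in the same cell, for 50 cells, with a slight random offset of the points. The 18 cells without Ezh1 above TPM 1 held 1 to 5 Hox genes and the 32 with it 0 to 8, and rho was 0.32 for Ezh1 and 0.13 for Ezh2.

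Single Hox genes were set against the presence of each Ezh gene. Hoxb2, a Hox gene at the 3′ end of its cluster, was found in 24 of the 32 cells with Ezh1 above TPM 1 (75%, interval 56.6% to 88.5%) and in 8 of the 18 without (44.4%, 21.5% to 69.2%). Its rho with Ezh1 was 0.38, positive within each of the 4 first title numbers, and its partial rho over all cells was 0.30. The intervals nonetheless overlap. Hoxb5 was found in 25 of the 32 cells with Ezh1 and 15 of the 18 without, and Hoxb4 and Hoxb7 each in 13 and 6. Hoxb6 was in 11 and 4, and Hoxa13 in 13 and 5.

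Against Ezh2, Hoxb2 was found in 20 of the 29 cells with it and 12 of the 21 without, and Hoxb5 in 23 and 17. Hoxb4 was in 13 and 6, Hoxb7 in 11 and 8, and Hoxa13 in 12 and 6. Hoxb6 was in 7 of 29 cells with Ezh2 and 8 of 21 without, with a rho of −0.14 and a partial rho of −0.22. For all 12 pairs of 1 Ezh gene and 1 of these 6 Hox genes, the intervals of the 2 shares overlapped. Such an overlap is not a test of the difference, which was not made.

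Ezh2 rose with the genes of the cell cycle across the 50 cells, and Ezh1 did so far less, a difference that was not tested. A score was taken as the mean of log2(TPM + 1) over 14 DNA replication genes. Ezh2 had a rho of 0.64 with it, a partial rho of 0.48 and a rho of 0.47 to 0.75 when each first title number was taken alone. Ezh1 had a rho of 0.22 and −0.11 with genes per cell held fixed. Within the first title numbers its rho ran from −0.08 to 0.65 and was positive in 3 of 4. A partial rho of 0.3 or more with this score was reached by 4.05% of the rows in at least 20% of cells, and Ezh2 alone of the members was among them. No sorting by cell cycle was made, and these lists measure transcripts, not division.

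**Figure D5:**
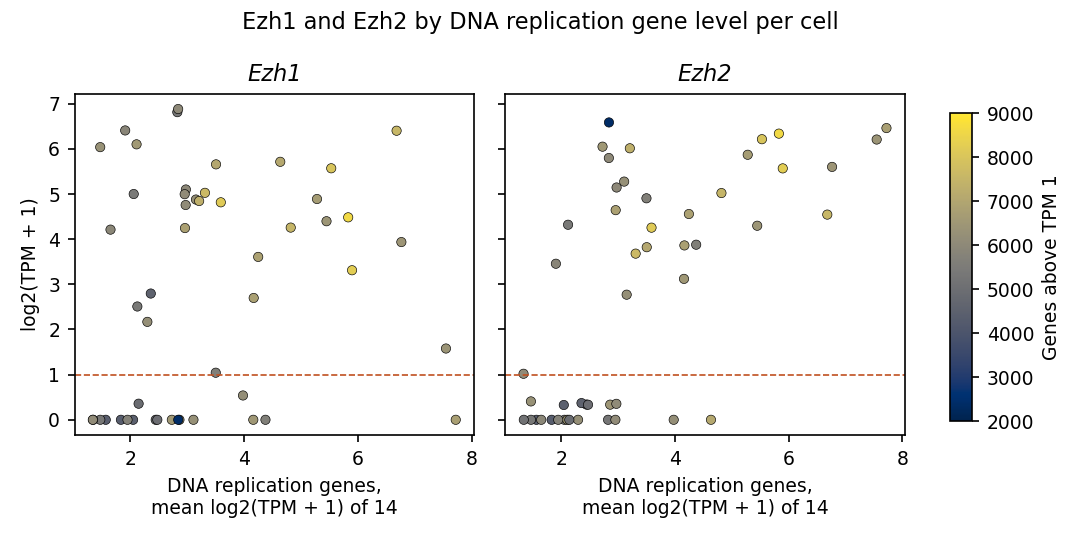
Ezh1 (left) and Ezh2 (right), as log2(TPM + 1), against the mean log2(TPM + 1) of 14 DNA replication genes in the same cell, for 50 cells. Ezh2 rose with the score (rho 0.64), while Ezh1 was spread over it (rho 0.22).

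A score over 12 cell division genes gave a smaller value for Ezh2, a rho of 0.49 (0.12 to 0.82 within the first title numbers) and a partial rho of 0.36. For Ezh1 it gave 0.05 and −0.15. A partial rho of 0.3 or more with this score was reached by 2.67% of rows. Gene by gene, Ezh2 had a positive partial rho with 12 of the 14 replication genes and 12 of the 12 division genes, and Ezh1 with 3 and 2. Of all rows in at least 20% of cells, 38.7% had a positive partial rho with Ezh2 and 54.9% with Ezh1. For Ezh2 the highest were Rrm1 (0.46) and Rrm2 (0.42), the subunits of ribonucleotide reductase, and Pcna (0.45), the sliding clamp. These 3 were picked for that value, so their counts restate the choice. Rrm1 was found in 22 of the 29 cells with Ezh2 and in 8 of the 21 without. The same gene was found in 22 of the 32 cells with Ezh1 and 8 of the 18 without. Rrm2 was in 13 of 29 cells with Ezh2 and 3 of 21 without, against 9 of 32 with Ezh1 and 7 of 18 without. Pcna was in 29 of 29 cells with Ezh2 and 19 of 21 without, and in 30 of 32 with Ezh1 and 18 of 18 without.

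The genes most like Ezh2 over the 50 cells, by partial rho among rows in at least 20% of cells, were Dtymk (0.58), which makes the precursor of dTTP, Rfc5 (0.57), a subunit of the clamp loader, and Lig1 (0.56), the ligase of replication, followed by Lca5 (0.50) and Txn1 (0.47). Without genes per cell held fixed, the rho of all 5 was positive within each first title number, in the same cells that ranked them. Lig1, picked here for that relation, was found in 25 of the 29 cells with Ezh2 and 6 of the 21 without, and in 25 of the 32 cells with Ezh1 and 6 of the 18 without. A partial rho of 0.3 or more with Ezh2 was reached by 1.96% of rows.

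For Ezh1 the nearest genes were Golph3l (0.52), Rwdd2a (0.51), Fbxo25 (0.50), Vdac1 (0.50) and Nfil3 (0.49). Without genes per cell held fixed, the rho of all but Rwdd2a was positive within each first title number. The share of rows at 0.3 or more was 3.21%.

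Among themselves the 10 genes moved little together. Over their 45 pairs the partial rho ran from −0.38 to 0.34 with a median of −0.07, and 14 pairs were positive. Suz12 with Phc1 was the only pair at 0.3 or above (0.34). Ezh1 with Eed (−0.38) and Rnf2 with Ring1 (−0.32) were the pairs at −0.3 or below. Of all such pairings of a member with a row, 2.05% were at 0.3 or above and 2.04% at −0.3 or below, so 1 and 2 of 45 are near the background. Without genes per cell held fixed, the rho of Ezh1 with Eed was negative within each first title number. Ezh2 with Eed was at 0.22 and Ezh1 with Jarid2 at 0.27. Against Runx1, the gene on the induced cassette, the 10 genes had a rho of −0.23 to 0.27, with Ezh2 at 0.27 and Ezh1 at 0.14. With genes per cell held fixed these were 0.16 and 0.02. Reads from the cassette and from the cell's own Runx1 are not separated in this row.

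Exons of 5 of the 10 genes overlap an exon of a gene on the other strand in GENCODE M21: Ezh2 with Gm26625, Eed with E230029C05Rik, Suz12 with Gm26563, Cbx7 with Apobec3 and Rnf2 with Trmt1l. Whether strand was used in the counting is not given in the sources used here, so reads of such pairs cannot be told apart. Apobec3 was above TPM 1 in 40 cells at a median of TPM 57.8, and its rho with Cbx7 was 0.00.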

How the data were processed

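Single sorted cells were amplified and sequenced, and the submitters' processing notes name bcl2fastq, HISAT2 2.1.0, SAMtools 0.1.19 and StringTie 1.3.4. The deposited values are TPM as the authors estimated them on mm10. The annotation and the rule by which rows were kept are not given in the sources used here. No unique molecular identifiers were named, so copies of 1 molecule are not told apart.

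A gene was counted in a cell at TPM above 1. Shares have exact Clopper-Pearson 95% intervals. Spearman's rho, and its partial form given the number of genes above TPM 1, describe 50 cells of 1 group that differ in genes found, and no test was made. The rho scripts were tested on simulated data. The genes named are the 10 members, lists of other subunits, Hox, Trithorax and cell cycle genes, and the 5 rows with the highest partial rho to Ezh1 and Ezh2 among 9104 rows above TPM 1 in at least 20% of cells. Members and lists were chosen with earlier results of these data known. The cell cycle relations, the co-occurrence with Rrm1, Rrm2, Pcna and Lig1, and the promoter stretch printed were chosen after seeing the data. Kmt2d could not be matched to 1 row. Some genes of these lists are counted but not reported by name. Alternatives were levels of 0, 5 and 10, a pseudocount of 0.1, removal of each first title number and of cells under 5000 genes, rescaling without 81 ribosomal protein rows, partial and Pearson correlation, and other Hox summaries. Positions came from GENCODE M21, promoters from RefSeq on GRCm38.p6. Python 3.11.15, NumPy 2.4.6, SciPy 1.17.1, pandas 2.3.3 and matplotlib 3.10.9 were used.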

Additional observations from a re-analysis of the deposited data

How the results depend on the processing

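No paired analysis was possible because the cells form 1 group and no test was made. Of 111 recomputed values of the 12 main results, 93 stayed within their interval (shares of cells) or the spread over first title numbers (all others), 14 moved and 4 changed sign. Of 176 values for single genes, 159 stayed, 7 moved and 10 changed sign. For rho with the Hox number the spread was wide, with a standard deviation of 0.52 for Ezh2 and 0.29 for Ezh1. A rho that stayed within such a spread shows little about stability. The shares that moved were those of Suz12 (84% at TPM above 0, 38% above 10), Jarid2 (84% and 56%), Ring1 (12% above 10) and Rnf2 (100% above 0 and without first title number 2). The median share over members had a narrow spread and moved to 70% at TPM above 0, 55% above 5, 67.4% without cells under 5000 genes and 58.1% to 62.8% with a first title number left out. Counting every TPM above 0 raised the share of cells with Ezh2 to 72%, that with Ezh2, Eed and Suz12 together to 54% and the members per cell to 6, and gave Bmi1 a rho of 0.087 with the Hox number. At TPM above 10 the median share over members was 44%, the 3 PRC2 genes were together in 16%, the members per cell were 4, and Eed had a rho of −0.018. Given genes per cell, rho was −0.063 for Ezh2 and −0.068 for Eed with the Hox number, −0.144 for Ezh1 with Ezh2, and 0.484 for Ezh2 and −0.114 for Ezh1 with replication genes. Leaving out each first title number in turn, rho with the Hox number ran from −0.047 to 0.31 for Ezh2, −0.064 to 0.067 for Eed, −0.042 to 0.158 for Rnf2 and −0.017 to 0.182 for Suz12. Without the cells under 5000 genes it was −0.074 for Eed and −0.104 for Suz12. Summed log2 values over Hox rows gave −0.063 for Eed, and the Hoxb rows −0.105. The causes were not tested. Depth is unknown, so a gene at 0 may have been present below detection.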
